A study of Mus musculus with 7 samples.

Results

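The cells described here are those that cell sorting set aside as reporter-negative in a pair of mouse lines, and the members are the open chromatin regions found in them by ATAC-seq, in which a transposase cuts accessible DNA. Of the 7 libraries of the series, 3 came from negative sorts: GFP- 1 and GFP- 2 from the Hoxb1-GFP line and Tomato- 7 from the Mef2c-Cre;Rosa tdT line, numbered after the adapters in their labels. All were made from the second heart field region dissected from embryos at embryonic day (E) 9.5, pooled within a genotype before digestion and sorting, with 10000 cells per sample stated in the study's methods. Peaks with a -log10 q of at least 2 were kept and merged on an overlap of 1 bp into 126634 regions in the 3 sort-negative libraries, of 210347 in the whole series. The members fell into regions with a peak in both GFP- libraries and not in Tomato- (4122, which is 3.26% of the 126634), regions with a peak in Tomato- and in neither GFP- library (32928, 26.0%), and regions with a peak in all 3 (30768, 24.3%), called below GFP- regions, Tomato- regions and shared regions. The GFP- cells came from embryos carrying a GFP reporter allele of Hoxb1, and the Tomato- cells from embryos carrying the Mef2c-Cre transgene and the Rosa tdT reporter, in which Cre is driven by an anterior heart field element of Mef2c and the Tomato label marks its descendants. The study's methods place the Hoxb1-GFP allele under the symbol Hoxb1-, which the study also uses for its Hoxb1 mutants. Whether embryos carried 1 or 2 copies of each allele was not given in the sources used here. How far Hoxb1 function was lowered in the GFP line is therefore not known. Neither negative sort removed the cells that the other line labels, so GFP- cells could include cells of the Mef2c-Cre lineage and Tomato- cells could include Hoxb1-expressing cells. Line and sort differed together between the groups, and their parts cannot be told apart.

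The second heart field is a population of pharyngeal mesoderm progenitors that adds myocardium to both poles of the growing heart tube. Its posterior part, marked by Hoxb1, Tbx5 and Osr1, contributes to the atria and the venous pole, whereas its anterior part, marked by Tbx1, Fgf8 and Fgf10, builds the right ventricle and the outflow tract. Around it in the same dissected tissue lie pharyngeal endoderm, surface ectoderm, neural crest, endothelium, circulating primitive erythrocytes, and parts of the neural tube and somites. A sort-negative fraction could collect such cells where they lack the reporter label. Which of them each fraction held was not tested. Accessible promoters are shared by most cell types, whereas distal accessible regions, many of them enhancers, differ between lineages.

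Reference sequences are given here for the regions on which the results turn, on the plus strand of GRCm38 (mm10), 100 bp on either side of the summit. The first pair comes from the 10 GFP- distal regions of highest fold enrichment and holds a SOX string, that is ACAATGG or ACAAAGG on either strand, the letters bound by SOX transcription factors. They lay 87.1 kb downstream of the start of 4930432J09Rik (chr14:103939968-103940168) and 5.71 kb downstream of that of Olfr513 (chr7:108760464-108760664), both intergenic. The Pax6 region lay in an intron of Elp4, with the start site of Pax6 97.1 kb upstream as its nearest (chr2:105779460-105779660). Capitals mark SOX strings and, in the Olfr513 region, a match to the HOX-PBX string TGATTNAT, also sought on both strands.
4930432J09Rik region: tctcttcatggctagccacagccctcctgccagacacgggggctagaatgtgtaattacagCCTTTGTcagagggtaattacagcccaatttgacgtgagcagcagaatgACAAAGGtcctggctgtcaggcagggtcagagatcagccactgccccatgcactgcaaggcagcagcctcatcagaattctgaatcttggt
Olfr513 region: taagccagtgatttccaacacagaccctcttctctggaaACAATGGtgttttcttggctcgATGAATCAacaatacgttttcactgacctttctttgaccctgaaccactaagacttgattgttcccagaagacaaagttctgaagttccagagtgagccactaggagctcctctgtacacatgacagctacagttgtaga
Pax6 region: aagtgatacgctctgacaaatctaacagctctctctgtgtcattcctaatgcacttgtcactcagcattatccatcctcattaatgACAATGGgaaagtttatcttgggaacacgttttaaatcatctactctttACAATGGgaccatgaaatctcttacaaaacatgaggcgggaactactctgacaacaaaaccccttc

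The Isl1 region below is the listed heart field GFP- region whose gene marks second heart field progenitors themselves. It was intergenic, 15.7 kb downstream of the Isl1 start site (chr13:116293938-116294138), and the capitals mark its match to the GATA string AGATAA, which 7.68% of the GFP- distal regions and 6.25% of all distal regions held.
Isl1 region: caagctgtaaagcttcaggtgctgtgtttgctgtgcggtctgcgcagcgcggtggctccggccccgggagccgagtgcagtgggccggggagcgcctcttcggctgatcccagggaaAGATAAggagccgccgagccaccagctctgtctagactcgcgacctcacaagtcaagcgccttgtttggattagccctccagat

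The promoter of Hbb-y, the embryonic beta-like globin gene of primitive erythrocytes, is shown because it had a peak in Tomato- and in no other library of the series. It is printed on its own strand, minus, from the RefSeq promoter table of the same build (chr7:103853158-103853457). Capitals mark GATA cores (AGATA or GATAA, 2 strings that can overlap), then CCACCC as well as CCAAT and ATAAAAG, sought on both strands. Of 32851 RefSeq promoters of the same length, 39.6% held a GATA core, 31.5% CCACCC, 37.4% CCAAT and 5.42% ATAAAAG, and 86 (0.262%) held all of these.
Hbb-y promoter: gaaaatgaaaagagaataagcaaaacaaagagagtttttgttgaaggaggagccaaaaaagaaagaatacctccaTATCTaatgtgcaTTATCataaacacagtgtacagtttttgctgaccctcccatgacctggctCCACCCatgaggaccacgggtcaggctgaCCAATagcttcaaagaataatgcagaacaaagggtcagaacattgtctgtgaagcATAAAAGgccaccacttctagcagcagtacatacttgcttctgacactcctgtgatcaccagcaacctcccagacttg

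The depth recovered from the peak lists was 76155637 tags in GFP- 1, 68775066 in GFP- 2 and 93074895 in Tomato- 7, and 52340120 to 76766044 in the 4 sort-positive libraries. These libraries gave 65086, 70280 and 77746 peaks, so the deepest of the sort-negative libraries, Tomato- 7, also gave the longest list. GFP- regions had to be found in each of 2 libraries, whereas Tomato- regions rested on 1 library and had no replicate check, and no test between the groups was possible. Intervals given with shares are 95% Wilson intervals and cover counting error only. In bulk libraries, fewer cells with an open site and less opening per cell cannot be told apart.

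Libraries of the same line overlapped about as much as libraries of different lines. The GFP- 1 and GFP- 2 lists shared 55.2% of their peaks, GFP- 1 and Tomato- 7 shared 54.5%, and GFP- 2 and Tomato- 7 shared 52.7%. Regions seen in both GFP- libraries and not in Tomato- (4122) were fewer than those seen in GFP- 1 and Tomato- without GFP- 2 (5697) or in GFP- 2 and Tomato- without GFP- 1 (5771). Regions seen in 1 library alone numbered 21040 for GFP- 1, 26308 for GFP- 2 and 32928 for Tomato- 7. With equal lists of the 50000 peaks of smallest p, the counts for 1 library alone were 13222, 14025 and 14058, so that the larger count of Tomato- regions was not seen at equal list length. A deposited peak under the threshold lay in the other sort at 45% of the GFP- regions and at 34.8% of the Tomato- regions, and left 2266 GFP- and 21458 Tomato- regions with no deposited peak in the other sort.

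**Figure D1:**
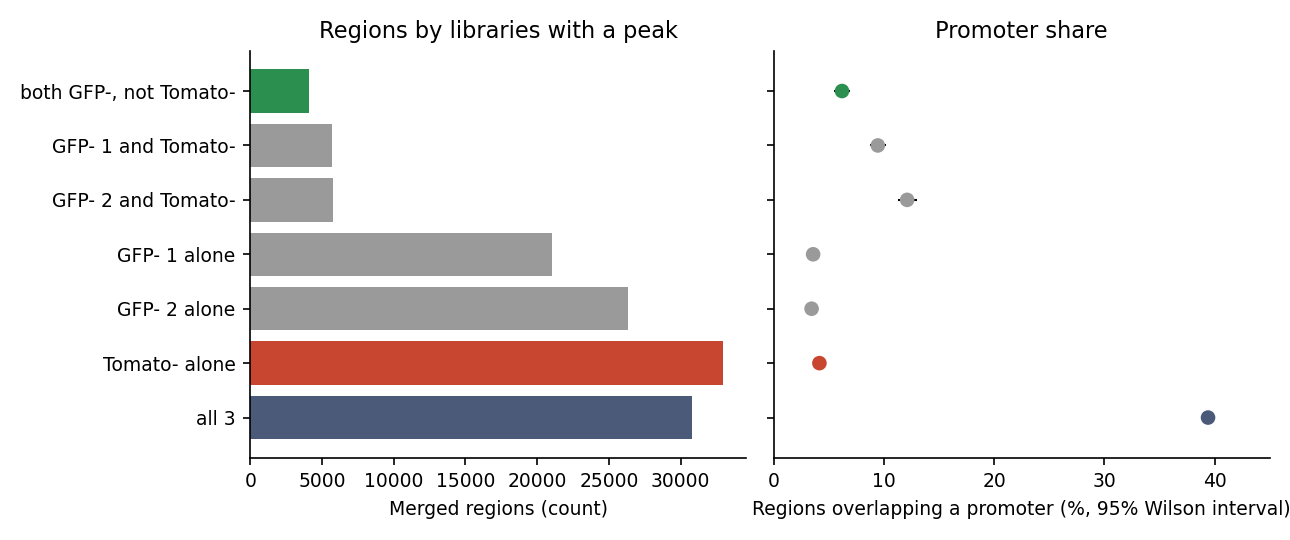
Merged regions of the 3 sort-negative libraries by the libraries with a peak (left, counts) and the share overlapping a promoter (right, percent, bars are 95% Wilson intervals). Regions in both GFP- libraries alone (green) are the smallest set, and the promoter share of 39.4% in shared regions (blue) stands above the 3.43 to 12.1% of all other sets.

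Promoters, taken as 1000 bp upstream to 100 bp downstream of a start site, were overlapped by 39.4% of the shared regions (38.8 to 39.9), 6.19% of the GFP- regions (5.49 to 6.96) and 4.14% of the Tomato- regions (3.93 to 4.36). Without either GFP- library, when GFP- regions too rested on 1 library, the order of the last 2 turned, with 3.95 to 4.16% for GFP- and 5.07 to 5.53% for Tomato- regions. Among shared regions with under 50% soft-masked bases the share was 62.2%. At least that part was soft-masked in 37% of the shared, 23.5% of the GFP- and 19.7% of the Tomato- regions. The cross-line pairs, GFP- 1 with Tomato- and GFP- 2 with Tomato-, also rest on 2 libraries each and gave 9.44% (8.71 to 10.2) and 12.1% (11.3 to 13), so that GFP- regions lay less often at promoters than regions shared across the lines, with intervals that did not overlap. GFP- regions lay far from genes, at a median of 34.8 kb from the nearest start site, against 22.6 and 21.8 kb for the cross-line pairs, 24.7 kb for Tomato- regions and 8.24 kb for shared regions. Beyond 150 kb of any start site lay 18.5% of the GFP- regions, 13.1% and 12.2% of the cross-line pairs and 10.9% of the Tomato- regions. The median GC content around the summit was 52.2% in GFP- regions, 54.7% and 55.2% in the cross-line pairs, 53.7% in Tomato- regions and 58.7% in shared regions. Chromosome 1, with 7.17% of the genome's length, held 11% of the GFP- regions, 10.6% of the shared regions and 6.96% of the Tomato- regions.

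Tomato- regions were short and close to the threshold. Their median length was 129 bp, against 270 bp in GFP- regions and 498 bp in shared regions, and the lone regions of GFP- 1 and GFP- 2 were of like length, at 113 and 115 bp. A -log10 q of at least 4 was reached by 14.1% of the Tomato- regions and by 11.4% and 10.6% of the regions of GFP- 1 alone and GFP- 2 alone. In both of their libraries 22.1% of the GFP- regions reached it, and 71.5% of the shared regions did so in all 3.

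The sort-positive libraries, which the classes did not use, show how far each class was open in the labelled cells. Any of the 4 held a peak at 98.9% of the shared regions, at 69.7% of the GFP- regions (68.3 to 71.1) and at 31.1% of the Tomato- regions (30.6 to 31.6). For the cross-line pairs this share was 80.7% and 79.6%, above that of the GFP- regions, and for the lone regions of GFP- 1 and GFP- 2 it was 25.9% and 23.5%, below that of the Tomato- regions. GFP- regions were found more often in the GFP+ libraries, 39.9% in GFP+ 3 and 42.4% in GFP+ 4, than in the Tomato+ libraries, 30.3% in Tomato+ 6 and 33.0% in Tomato+ 8. For the Tomato- regions the corresponding shares were 10.9 and 12.2% in the GFP+ libraries and 12.9 and 12.8% in the Tomato+ libraries. Peaks in both GFP+ and no Tomato+ library were found at 6.50% of the GFP- regions (5.79 to 7.30), and in both Tomato+ and no GFP+ library at 2.35% (1.93 to 2.86). The cross-line pairs had 3.70 and 5.0%, and 4.23 and 3.85%. GFP- regions thus lay more often in the GFP+ cells of their own line than in the Tomato+ cells, which the GFP- sort does not remove. The line, the marker and the making of the libraries cannot be told apart in this comparison.

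Only a small number of regions followed the mouse line in all libraries. A peak in all 3 Tomato-line libraries and no deposited peak in any of the 4 GFP-line libraries was found at 80 Tomato- regions, and the converse at 60 GFP- regions. The Tomato-line region of highest fold lay 19.3 kb upstream of Sox9, a transcription factor gene of neural crest and cartilage (fold enrichment 7.92 in Tomato- 7, 4.27 in Tomato+ 6 and 5.52 in Tomato+ 8). Fold enrichment is the pileup of tags at the summit over the local background. An intron region of Mef2c also met the rule for Tomato-line regions. It lay in the Mef2c stretch around the element used in the Mef2c-Cre transgene, which only the Tomato line carries. Whether its peaks came from the transgene or from the Mef2c gene itself was not tested. Among the GFP-line regions was an intron of Sema3c, 53.9 kb downstream of its start site (6.04 and 7.60 in the GFP- libraries, 3.61 and 3.50 in the GFP+ libraries). Sema3c encodes a guidance ligand of the outflow tract.

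GFP- regions held SOX and HOX-PBX strings around their summits more often than every other set, with intervals that did not overlap. Of the 2904 GFP- distal regions outside repeats and the Y chromosome, 16.8% held a SOX string within 100 bp of the summit (15.5 to 18.2). The same string was held by 7.29% and 7.89% of the cross-line pairs, 8.11% and 8.85% of the regions of GFP- 1 and GFP- 2 alone, 6.72% of the Tomato- regions, 9.43% of the shared regions and 8.27% of all 79576 distal regions searched. The HOX-PBX string TGATTNAT, read by HOX and PBX homeodomain proteins together, was held by 4.86% of the GFP- regions (4.13% at the lower bound), against 1.67% and 2.34% in the cross-line pairs, 1.87% and 2.37% in the regions of GFP- 1 and GFP- 2 alone, 1.59% in Tomato- regions, 2.11% in shared regions and 2.06% of all distal regions. Both strings were found in 43 GFP- regions (1.48%) and in 0.103 to 0.395% of the regions of the other sets. Neither string contains the other.

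**Figure D2:**
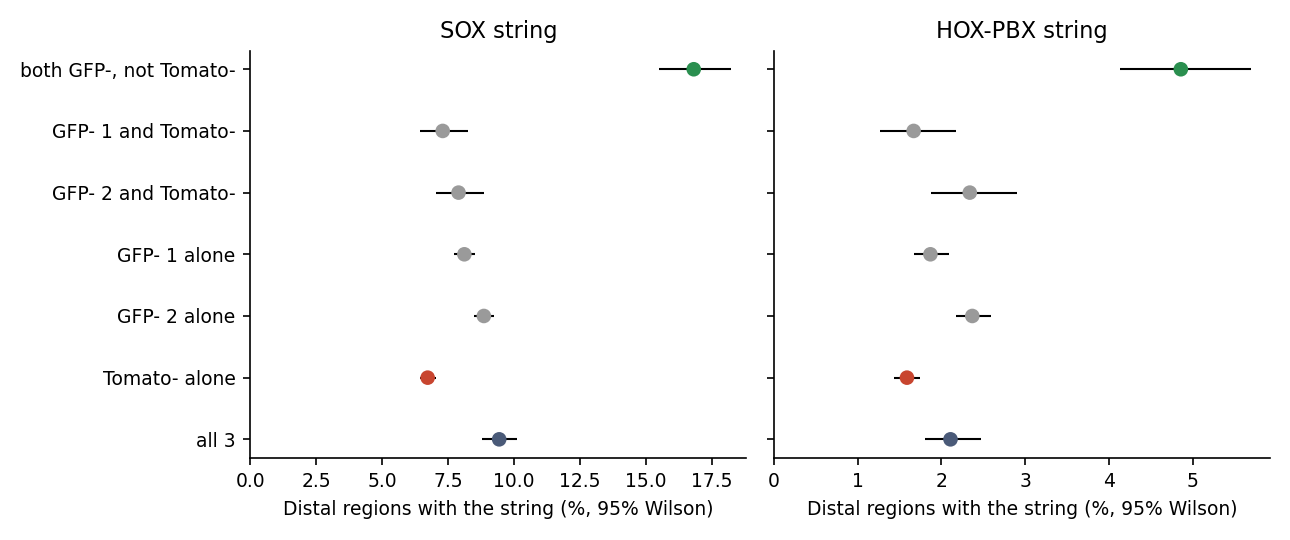
Share of distal regions with a SOX string (left) or the HOX-PBX string (right) within 100 bp of the summit, by the libraries with a peak (percent, bars are 95% Wilson intervals). The GFP- regions (green) lie at 16.8% and 4.86%, to the right of every other set.

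The share of GFP- regions with a SOX string was higher where the peaks were stronger. With the regions in 5 equal groups by fold enrichment, it was 12% (9.65 to 14.9) in the lowest group and 26.7% (23.2 to 30.4) in the highest. The Tomato- regions held it at 6.2% in the lowest and 7.18% in the highest group, and the cross-line pairs ran over the groups from 6.05 to 8.17% and from 6.73 to 8.77%. With a -log10 q of at least 4 in each library, 26.1% of 629 GFP- regions held the string (22.8 to 29.6), against 6.79% of the Tomato- regions, 9.11% of either cross-line pair, 8.76% of the shared regions, and 9.59% and 12.4% of the regions of GFP- 1 and GFP- 2 alone. Within bins of GC content the share with a SOX string was compared again. Between 45 and 50% GC, 25.4% of GFP- regions held a SOX string against 8.75% of Tomato- regions, 10.7% of the joined cross-line pairs and 16.2% of shared regions, and at 60% GC or more the shares were 6.07%, 3.88%, 4.58% and 4.93%. Against shared regions the intervals overlapped from 55% GC upwards, with 10.6% of GFP- regions (8.43 to 13.2) and 9.87% of shared regions (8.54 to 11.4) between 55 and 60% GC. The HOX-PBX string was held by 13.3% of GFP- regions and 5.77% of shared regions below 45% GC, and by 7.10% (5.38 to 9.31) and 4.15% (2.95 to 5.79) between 45 and 50%, where the intervals overlapped. Between 50 and 55% GC the shares were 3.68% and 3.46%, and between 55 and 60% the GFP- regions lay lower, at 1.58% against 1.94%, so that the higher HOX-PBX share than in shared regions was seen at low GC. GFP- regions far from genes held a SOX string most often, with 24.5% beyond 150 kb (21 to 28.5) and 15.2% within that distance (13.9 to 16.7). A SOX string was held by 20.6% of the GFP- regions with no peak in a sort-positive library (18.2 to 23.1) and by 6.52% of those with a peak in all 4 (3.77 to 11.1). With peaks in both GFP+ and no Tomato+ library the share was as high, at 19.8% of 187 regions (14.7 to 26.1). With peaks in both Tomato+ and no GFP+ library it was 7.50% of 40 regions (2.58 to 19.9). A high SOX share was thus not confined to regions without a peak in labelled cells.

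**Figure D3:**
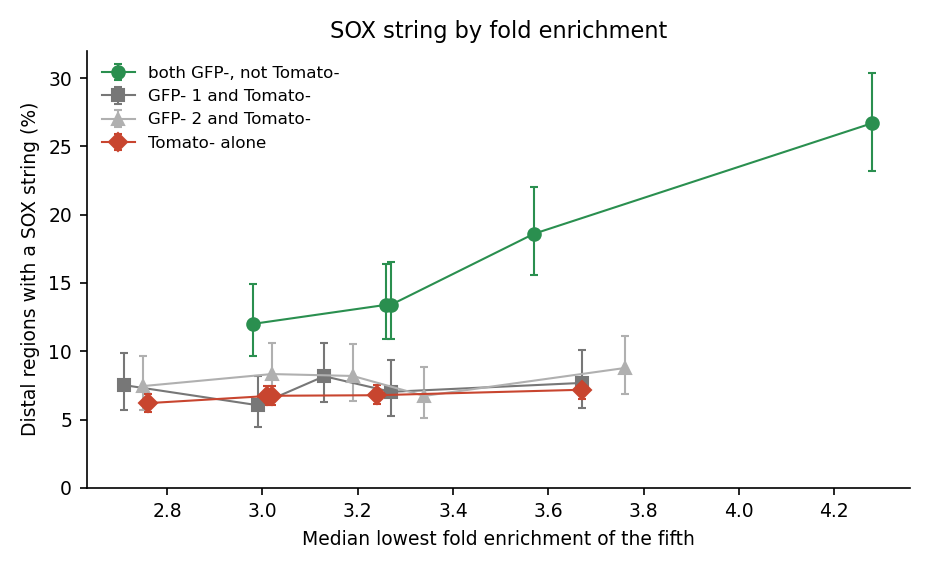
Share of distal regions with a SOX string (percent, bars are 95% Wilson intervals) against the median fold enrichment of each of 5 equal groups of the regions, the fold being the lowest among the libraries that define the set. The GFP- regions run from 12% to 26.7%, and the other sets drawn stay between 6.05% and 8.77%.

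Of the other strings searched, some were held by more GFP- regions than regions of the other sets and some by fewer. The TEAD string GGAATG was held by 14.6% of the GFP- regions against at most 12% of the other sets, and the homeobox string TAATTA by 3.58% against 1.67 to 2.41%. The E-box CAGCTG, bound by many basic helix-loop-helix factors, was held by 18.5% of GFP- regions and 16.8 to 20.2% of the other sets. The GATA string AGATAA was held by 7.68% of the GFP- regions, against 3.71% of the shared regions and up to 6.86% of the regions of GFP- 2 alone. The KLF string CCACACCC lay below the other sets, with 1.65% of the GFP- regions (1.25 to 2.18) against 2.18% of the shared regions and up to 3.01%. The CTCF string was held by 5.85% of the GFP- regions, which lay between the 2.78% and 2.87% of the regions of GFP- 1 and GFP- 2 alone and the 8.16% of shared regions and 8.59% and 10.6% of the cross-line pairs. In all, 17 motifs were searched. A match is a description of letters and not of a bound site.

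The SOX string also went with lower Tomato- signal at shared regions. Among the 7339 shared distal regions searched, the 692 with a SOX string had a median log2 ratio of Tomato- 7 to the GFP- libraries of -0.19 (to GFP- 1) and -0.22 (to GFP- 2) in summit pileup scaled by tag number, against -0.07 and -0.09 without it. GFP- 1 against GFP- 2 differed between the same sets of regions by -0.01. With the HOX-PBX string (155 regions) the medians were -0.27 and -0.28. The differences between regions with and without a string were -0.12 and -0.13 for SOX, -0.20 and -0.18 for HOX-PBX, and -0.16 and -0.18 for the TCF string ATCAAAG (136 regions), so that SOX was not the string of largest difference. Within bins of GC content the SOX difference lay between -0.09 and -0.18 below 60% GC and at 0.02 and -0.01 above it. In those bins GFP- 1 against GFP- 2 differed by -0.05 below 45% GC and by -0.08 between 50 and 55% GC.

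At single shared regions the sort-negative libraries differed little. Summit pileup in Tomato- was at least 2-fold above both GFP- libraries at 33 of 30768 shared regions (0.107%) and at least 2-fold below both at 111 (0.361%). For comparison, GFP- 1 was above both others at 17 and below both at 14, and GFP- 2 at 15 and 30. The SD of the log2 ratios over regions was 0.41 for Tomato- against either GFP- library and 0.35 between the GFP- libraries. Of the 111 lower regions 15.3% were promoters and 30.6% lay beyond 150 kb of a start site, against 39.4% and 13.1% of all shared regions. They included an intron of Cmas, a gene of sialic acid activation (fold enrichment 10.8 and 9.81 in the GFP- libraries, 3.59 in Tomato-), the promoter of the carbohydrate kinase gene Fggy (10.6 and 13.3, against 3.45) and the promoter of the protocadherin gene Pcdh20 (8.36 and 9.87, against 3.24). They also included a region 113 kb upstream of Jag1, which encodes a Notch ligand (8.55 and 9.43, against 3.02). At some of these regions the Tomato+ libraries differed from each other as much. Tomato+ 6 and Tomato+ 8 had 18.7 and 3.66 at Cmas, 3.94 and 13.7 at Fggy, and 4.29 and 6.79 at Pcdh20. At the Jag1 region Tomato+ 6 had no deposited peak and Tomato+ 8 had 4.44. With 1 Tomato- library, scatter between libraries and a difference between the sorts cannot be told apart here. Of the 33 higher regions 45.5% were promoters, among them that of Emc10, a subunit of the endoplasmic reticulum membrane complex (4.04 and 4.21 in the GFP- libraries, 8.40 in Tomato-). The median GC content around the summit was 51.2% in the lower regions and 61.7% in the higher regions, against 58.7% in all shared regions. The parts of GC content and of promoter position in these calls were not told apart.

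At the promoters of 24952 annotated genes the 3 libraries were mostly alike: 12898 (51.7%) had a peak in all 3, 215 (0.862%) in both GFP- and not Tomato-, and 694 (2.78%) in Tomato- alone. Lone promoter peaks numbered 340 (1.36%) for GFP- 1 and 466 (1.87%) for GFP- 2. Of the 214 genes in 18 lists of lineage markers and controls, 79 had promoter peaks in all 3 libraries, 1 in both GFP- and not Tomato-, and 22 (10.3%) in Tomato- alone, against 7 and 6 for GFP- 1 and GFP- 2 alone. The gene of the GFP- libraries was Wt1, of the proepicardium (fold enrichment 3.47 and 3.82, with a weaker peak of 2.24 in Tomato-). The 22 genes of Tomato- were Foxf1, Fgf8, Foxc2, Tnnt2, Cdh5, Fli1, Sox18, Hbb-y, Hbb-bh1, Hba-a1, Nkx2-3, Grhl2, Pax7, Dbx1, Dlx2, Meox1, Pax8, Lhx1, Hoxa5, Hoxa11, Hoxb9 and Gh. They did not belong to 1 lineage, and Gh, the pituitary growth hormone gene, was listed as a gene of another tissue. At 16 of them a GFP- library had a deposited peak under the threshold, and the other 6, Foxc2, Tnnt2, Sox18, Hbb-y, Hbb-bh1 and Hba-a1, had none in either. At Fgf8 and Pax7 the fold enrichment of that peak in GFP- 2 (2.64 and 2.68) was above that in Tomato- 7 (2.51 and 2.52). Of the 12 housekeeping promoters, 11, 11 and 12 had a peak in GFP- 1, GFP- 2 and Tomato- 7, and of the 10 promoters of genes of other tissues 1, 0 and 2 did.

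Of the 22 listed promoters of Tomato-, 9 passed the threshold in no other library of the series: Hbb-y, Hbb-bh1 and Hba-a1 of blood, Cdh5 of endothelium, Foxc2, Dbx1, Meox1, Pax8 and Hoxa11. The promoters of the embryonic beta-like globin genes Hbb-y and Hbb-bh1 had peaks in Tomato- 7 (fold enrichment 4.10 and 3.88, -log10 q 5.30 and 4.62) and no deposited peak in any of the other 6 libraries. The alpha-globin promoter Hba-a1 had a peak of 2.90 in Tomato- 7, none in the GFP- libraries, and peaks under the threshold of 2.21 and 2.01 in the GFP+ libraries. Within 80 kb of the Hbb-y start site, 13 peaks were deposited for Tomato- 7, of which 6 passed the threshold, against 6 with 2 passing in each GFP- library and 1 to 6 with at most 2 passing in the sort-positive libraries. A region 1.97 kb downstream of the Hbb-y start site was also found in Tomato- alone (4.10). An intron of Slc4a1, the erythrocyte anion exchanger, had a fold enrichment of 3.85 in Tomato- 7, none in the GFP- libraries and 2.96 and 2.98 in the Tomato+ libraries. Of the 16 blood promoters, 11 had a peak in Tomato- 7, 8 in GFP- 1, 4 in GFP- 2 and 4 to 6 in the sort-positive libraries. In percent these were 68.8 for Tomato- 7 and 50 and 25 for the GFP- libraries, beside 58.8 for Tomato- 7, 55.8 for GFP- 1 and 56.8 for GFP- 2 over all 24952 genes. GFP- 1 and Tomato- 7 shared 4 blood promoters that GFP- 2 lacked, among them Hba-x, Slc4a1 and Epor, so that the GFP- libraries differed from each other as well. Transcription factor genes of the lineage did not follow this order: Tal1, Runx1 and Myb had promoter peaks in all 3 sort-negative libraries, as did Nfe2, whereas Gata1, Klf1 and Spi1 had none in any of the 3. Alas2, which encodes an enzyme of haem synthesis, and the integrin gene Itga2b had none either. The part of blood cells in the other Tomato- regions was not tested.

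**Figure D4:**
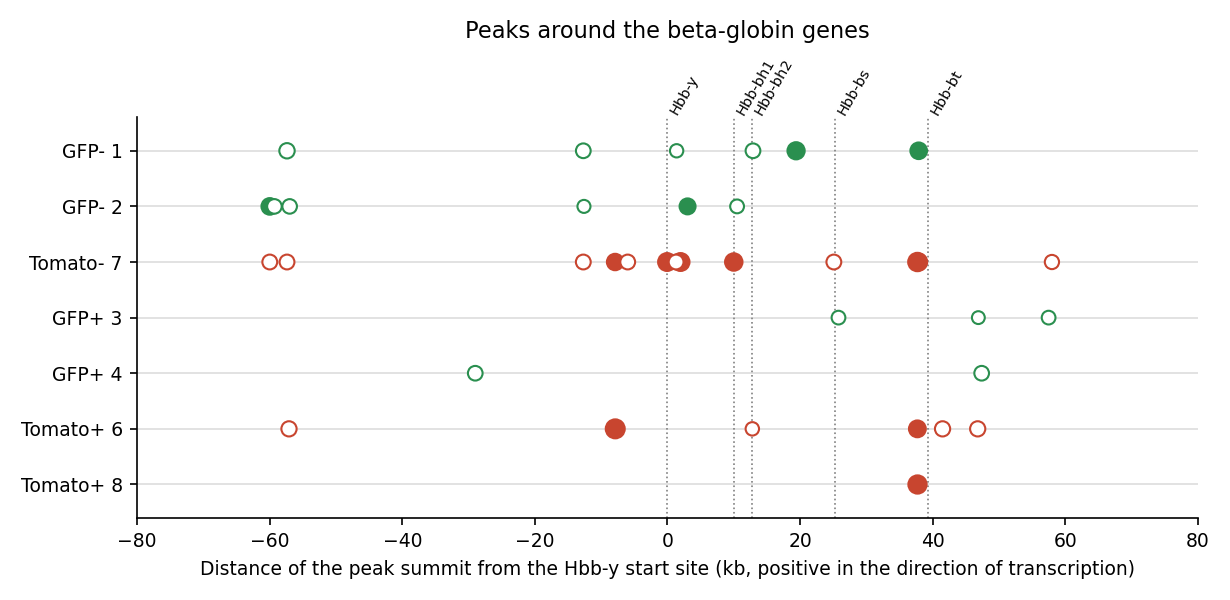
Deposited peaks within 80 kb of the Hbb-y start site in each library, by the distance of their summits from it (kb, positive in the direction of transcription), with the start sites of the beta-globin genes dotted. Circle area follows fold enrichment and filled circles have a -log10 q of at least 2: Tomato- 7 holds 6 such peaks, with peaks at the Hbb-y and Hbb-bh1 starts that no other library has.

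Regions were next assigned to the gene of the nearest start site within 150 kb. Of all 111402 assigned regions 3.02% were GFP- regions, 26.3% Tomato- regions and 24.0% shared regions. Against this background the anterior second heart field list had 11 GFP- regions of 101 (10.9%, 6.19 to 18.5) and 18 Tomato- regions (17.8%). They included regions near Sema3c (3), Isl1, Foxc1 and Eya1 (2 each) and Tbx1 (1). The study's text counts Sema3c among posterior genes. Without it the list had 8 of 94 (8.51%, 4.38 to 15.9). Of the 11 regions, 2 lay wholly in repeats, 7 had a deposited Tomato- peak under the threshold, and 3 had a -log10 q of at least 4 in both GFP- libraries. The posterior list had 4 GFP- regions of 82 (4.88%) and 21 Tomato- regions (25.6%), both with intervals that held the background share. The Hox genes of paralog groups 1 to 3 had 0 GFP- regions of 26 (0 to 12.9%) and 10 Tomato- regions (38.5%, 22.4 to 57.5). Both intervals held the background share here too.

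**Figure D5:**
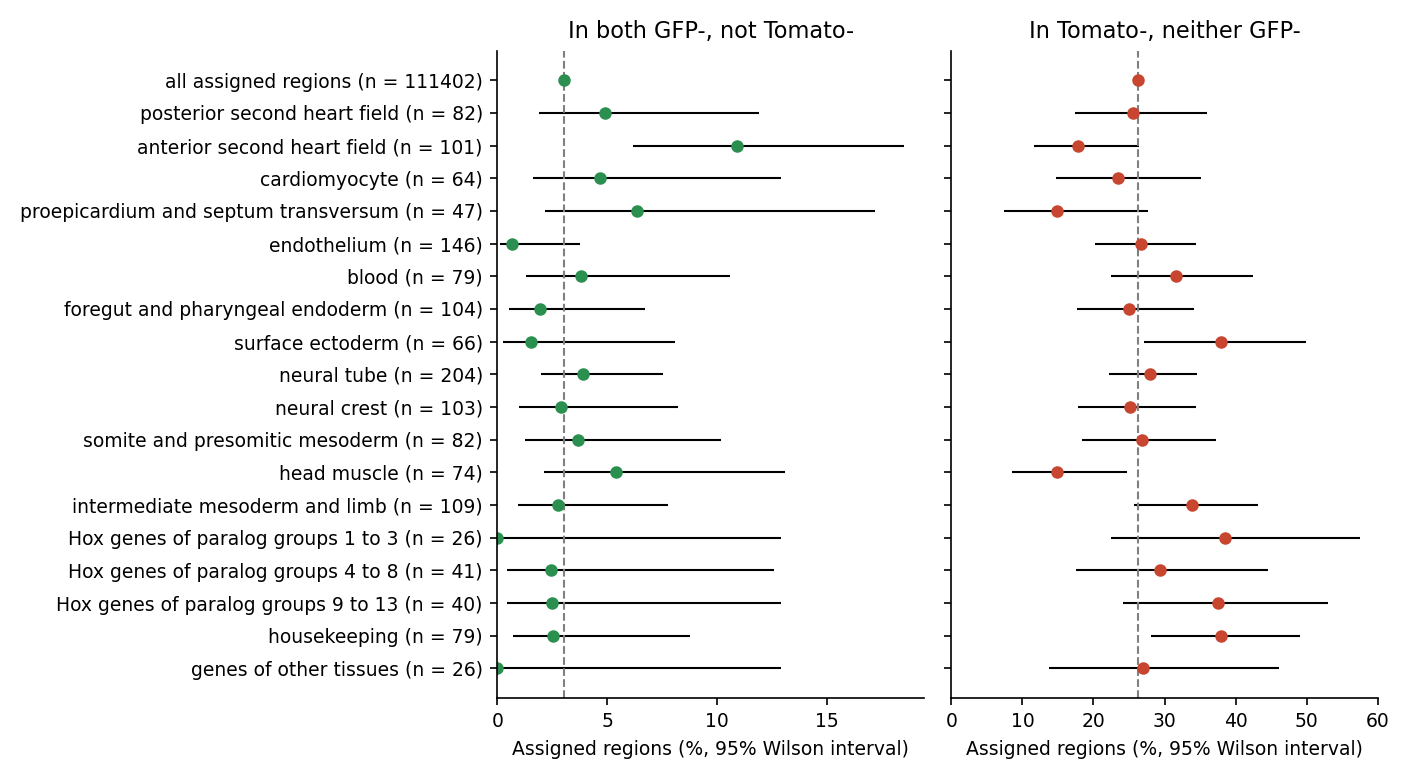
Share of the regions assigned to each gene list that were GFP- regions (left) or Tomato- regions (right), in percent with 95% Wilson intervals and n assigned regions in the row names; dashed lines mark the share over all assigned regions, 3.02% and 26.3%. The anterior second heart field list lies above the line on the left at 10.9%. The surface ectoderm and housekeeping lists lie above it on the right at 37.9% and 38%, with intervals clear of the line. Hox genes of paralog groups 1 to 3 and 9 to 13 lie as high, at 38.5% and 37.5%, with intervals that hold it.

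The anterior heart field regions were mostly open in labelled cells too. The Isl1 region printed above had a fold enrichment of 4.95 in GFP- 1, 4.43 in GFP- 2, 2.37 in Tomato- 7 (-log10 q 0.796), 5.82 and 6.07 in the GFP+ libraries, and 4.95 and 2.26 in the Tomato+ libraries. It was thus low in Tomato- 7 and Tomato+ 8 and high in the other 5 libraries. A further Isl1 region, 12.2 kb downstream of the start site, had 3.06 and 3.53 in the GFP- libraries and 2.59 in Tomato- 7, and its -log10 q of 2.01 in GFP- 1 lay just inside the threshold. Just outside it was the Tomato- peak, with a -log10 q that rounds to 2 from below, at a GFP- region 65.4 kb upstream of Irx3. A region 14.2 kb downstream of Foxc1, in an intron of Gmds, had 3.62 and 3.65 in the GFP- libraries, 2.32 in Tomato- 7 and 3.47 to 5.36 in the sort-positive libraries. Foxc1 encodes a forkhead factor of pharyngeal mesoderm and mesenchyme. The Tbx1 region, 34.4 kb from the start of this gene of the anterior field, in a coding exon of Gnb1l, had 2.54 and 2.97 in the GFP- libraries, 2.44 in Tomato- 7, 2.27 in GFP+ 3 and no deposited peak in the other 3 libraries. The promoter of Fgf8, a ligand of the anterior field, had 2.51 in Tomato- 7 and 2.90 in GFP+ 3, both past the threshold, and 2.17 and 2.64 in the GFP- libraries under it (-log10 q of 0.821 and 1.86). The Foxc2 promoter had 3.40 in Tomato- 7 and no deposited peak in the GFP- libraries.

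Posterior heart field genes gave regions in both negative sorts. A region that reached into the promoter of Osr1, a zinc finger gene of the posterior field, had 4.03 and 4.56 in the GFP- libraries and 2.5 in Tomato- 7, with 3.06 to 3.84 in the sort-positive libraries. An intron of Tbx5, the T-box gene of the venous pole, had 3.78 and 3.30 in the GFP- libraries and 2.66 in Tomato- 7, and 2 further Tbx5 introns had a peak in Tomato- 7 alone (3.24 and 3.45). The promoter of Foxf1, a target of Hedgehog signalling, had 2.84 in Tomato- 7 and 2.3 and 2.67, under the threshold, in the GFP- libraries. Wnt2 and Nr2f2 each had 4 Tomato- regions, of 10 assigned regions each, and no GFP- region. Hoxb1 had 3 of 8 and Aldh1a2 3 of 7, likewise with no GFP- region. Since a Tomato- region needed 1 library and a GFP- region 2, these counts are read only against the background shares.

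Endothelial genes had 1 GFP- region of 146 (0.685%, 0.121 to 3.78) and 39 Tomato- regions (26.7%), the latter close to the 26.3% of all assigned regions. The GFP- region was near Sox17, also a gene of endoderm, and lay wholly in a repeat. Tomato- regions were most numerous near Cdh5, the adhesion molecule of endothelial junctions (6 of 24 assigned regions), Flt1 (5 of 24) and Nfatc1 (5 of 14). Kdr had 4 of 9, Tek 4 of 7, and Pecam1 and Fli1 4 of 11 each. Sox17 had 0 of 19 and Etv2 0 of 2. An intron of Tek, which encodes an angiopoietin receptor, had a fold enrichment of 3.62 in Tomato- 7, a peak of 2.71 under the threshold in GFP- 2, none in GFP- 1, and 3.94 and 3.17 in the Tomato+ libraries. Of 14 endothelial promoters, 7 had a peak in Tomato- 7, 2 in GFP- 1, 4 in GFP- 2 and 3 to 5 in the sort-positive libraries. The 50% of Tomato- 7 lay below the 58.8% of all genes, as did the 14.3% and 28.6% of the GFP- libraries below their 55.8% and 56.8%.

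The blood list had 25 Tomato- regions of 79 (31.6%, 22.4 to 42.5), of which 10 lay near Runx1. Without Runx1 the share was 27.8% (17.6 to 40.9). Surface ectoderm genes had 25 Tomato- regions of 66 (37.9%, 27.1 to 49.9) and 1 GFP- region, and 11 of the 25 lay near Tfap2c, an AP-2 factor of ectoderm. Without Tfap2c the share was 33.3% (21 to 48.4). Housekeeping genes reached the same level, with 30 of 79 (38%), 15 of them near Ywhaz, and without Ywhaz 28.3% (18 to 41.6). The blood and housekeeping lists thus owed most of their distance from the background to 1 gene each. The 10 genes of other tissues had 7 Tomato- regions of 26 (26.9%).

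The remaining lists lay near the background for GFP- regions, with 4.69% for cardiomyocyte genes, 6.38% for proepicardium, 1.92% for foregut and pharyngeal endoderm, 3.92% for the neural tube, 2.91% for neural crest, 3.66% for somites, 5.41% for head muscle and 2.75% for intermediate mesoderm and limb. Each of these intervals held 3.02%. Their Tomato- shares ran from 14.9% for proepicardium and head muscle to 33.9% for intermediate mesoderm and limb, and that of head muscle, with an upper bound of 24.7%, lay below the background. Hox genes of paralog groups 4 to 8 had 2.44% GFP- and 29.3% Tomato- regions, and those of groups 9 to 13 had 2.5% and 37.5%. Within these lists, Pax6, a neural tube and eye gene, had the GFP- region printed above, with fold enrichments of 3.52 and 5.16 in the GFP- libraries and no deposited peak in any other library. Olig2, of motor neuron progenitors, had a GFP- region in its coding exon (2.81 and 2.76) that was likewise in no other library. Sema3d, a proepicardial semaphorin, had 3 GFP- regions, 2 of them in its introns 142 and 147 kb downstream of a start site (6.04 and 4.88, and 4.28 and 6.24). A region 7.31 kb upstream of Sox2, in an intron, had 3.69 and 4.81 in the GFP- libraries, 2.6 in Tomato- 7 and 3.10 to 3.66 in the sort-positive libraries. In Tomato-, the most numerous regions of these lists lay near Uncx, of somites (10 of 21 assigned regions). Pax7 (9 of 20) and Dbx1 (9 of 23), of the neural tube, and Lmx1b, of the limb (9 of 17), came next. Neurog2 (7 of 17) and Bcl11a (7 of 16), of neurons, and Irx3 (7 of 28) followed. Irx3 had 2 GFP- regions, Uncx and Lmx1b had 1 each, and the others had 0.

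The GFP- distal regions of highest fold enrichment with no deposited Tomato- peak were assigned to none of the listed genes. The region 87.1 kb downstream of 4930432J09Rik had 8.81 and 9.23 in the GFP- libraries, and peaks of 5.42, 3.0 and 3.68 in GFP+ 3, GFP+ 4 and Tomato+ 8. The Olfr513 region had 9.31 and 7.87, with 3.50 in GFP+ 4 and 2.83 in Tomato+ 8. An intron of Sdk1, which encodes a synaptic adhesion molecule, had 7.20 and 9.48 in the GFP- libraries, 5.91 and 5.56 in the GFP+ libraries and 3.57 and 5.48 in the Tomato+ libraries, so that Tomato- 7 was the library of the series without a peak there. Of the 9 top distal regions outside chromosome 18, 3 held a SOX string. The highest promoters included those of Minar2 (6.04 and 4.88), Celf2, an RNA-binding splicing factor (4.78 and 5.16), the potassium channel gene Kcnh7 (4.03 and 4.34) and Shroom2, an actin-binding protein gene (3.78 and 7.33).

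Among Tomato- regions with no deposited GFP- peak, the highest after the Sox9 region included an intron of Tnrc6b (6.26), which had no peak in any other library, and regions near Cd209f (6.04) and Dmrt3 (5.90). The highest promoters were those of Fam178b (4.53, with 6.15 in Tomato+ 6), 9330158H04Rik (4.53) and Hbb-y (4.10). The promoter of Tbx15, a T-box gene of mesenchyme, had 3.96, and that of Tlr12, a Toll-like receptor gene of myeloid cells, had 3.99. Of the Tomato- regions 11032 had no deposited peak in any of the other 6 libraries.

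The genes behind the reporters were read last. The Hoxb1 promoter had a peak in all 3 sort-negative libraries (fold enrichment 3.28, 3.71 and 3.41). A region 6.89 kb downstream of its start site had no deposited peak in either GFP- library, 4.08 in Tomato- 7, 4.78 and 2.99 in the GFP+ libraries and 3.94 and 2.83 in the Tomato+ libraries, of which 2.99 and 2.83 were under the threshold. The GFP- libraries were thus the ones of the series without a peak there. A shared region at a Mef2c promoter had 5.60 and 4.79 in the GFP- libraries and 4.28 in Tomato- 7. Another at a Mef2c promoter had 4.22 and 4.55 in the GFP- libraries and 4.35 in Tomato- 7. Over the Mef2c stretch around the element used in the transgene, the local background was 1.17 and 1.09 times that of the genome in the GFP- libraries (medians over 5 and 6 peaks), 1.58 times in Tomato- 7 (4 peaks, 1.32 to 1.97), 1.21 and 1.20 times in the GFP+ libraries, and 6.86 and 3.04 times in the Tomato+ libraries. The Tomato- library thus lay above the 4 GFP-line libraries and below both Tomato+ libraries. Fold enrichments of Mef2c are ratios to this background, and how far it changed them was not tested. The Mef2c intron region named above among the Tomato-line regions lay in this stretch. It also counts as a Tomato- region of the anterior second heart field list.

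At shared regions assigned to the lists, none passed the 2-fold limit in either direction. The lowest medians of the log2 pileup ratio of Tomato- to GFP- were those of foregut and pharyngeal endoderm genes (-0.35 and -0.30 over 30 regions) and intermediate mesoderm and limb genes (-0.26 and -0.30 over 14), followed by neural crest (-0.17 and -0.32 over 20) and endothelium (-0.19 and -0.26 over 26). In the foregut list 20 of 30 regions were lower in Tomato- than in both GFP- libraries, and 2 higher. The median GC content of the foregut regions was 51.5%, against 58.7% over all shared regions. It was 62.9% for intermediate mesoderm and limb, 58.5% for neural crest and 62.2% for endothelium. Sox17, a gene of the foregut and endothelium lists, held 14 of the regions of each, with medians of -0.27 and -0.32. Without it the foregut list had -0.35 and -0.15 over 16 regions, 7 of them lower than in both GFP- libraries, and the endothelium list had 0.04 and -0.18 over 12, where GFP- 1 against GFP- 2 had -0.21. The lists without Sox17 were computed after seeing the data. The highest were those of blood genes (0.21 and 0.20 over 17 regions) and of Hox genes of paralog groups 4 to 8 (0.16 and 0.28 over 8). Anterior heart field genes had -0.14 and -0.22 over 21 regions and posterior ones -0.06 and -0.03 over 23. Between the GFP- libraries the medians of these lists lay between -0.13 and 0.09. Over every list they lay between -0.23 (cardiomyocyte, 7 regions) and 0.17 (Hox genes of paralog groups 1 to 3, 9 regions, and 9 to 13, 6 regions). Over all shared regions each median was set to 0.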

How the data were processed

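The members, gene lists and comparisons were chosen with earlier results of these data known, and the motif strings after the peaks were seen. ATAC-seq was made from sorted cells of pooled E9.5 embryos, and per the labels reads were handled with bcl2fastq 2.17.1.14, SAMtools, MACS2 2.1.1, DiffBind and HOMER on mm10. According to the study's methods, paired reads were mapped to GRCm38 with SNAP, and duplicates, improper pairs and reads in ENCODE blacklisted stretches were dropped. The study also filtered peaks on reproducibility between replicates, which was not applied to the lists used here, since they reach down to weak peaks of each library. The authors called peaks in each library with MACS2 and deposited, for each summit, the pileup signal (coverage), the fold enrichment (a ratio to the local background), and -log10 p-value and -log10 q-value. The deposited lists reached down to a -log10 p of 2.00, and tags were extended to 73 bp with a shift of 37 bp according to the header of the list that has one. Columns of other samples were not present.

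Peaks with several summits were reduced to 1 row per interval, with the summit of smallest p. Those with -log10 q of at least 2 were merged by 1 bp, and other overlaps, thresholds and list lengths were tried as given in the closing section. Tag numbers were recovered from the lowest local background and an effective genome size of 1870000000 bp, and pileup was divided by them and centred on the median log2 ratio over shared regions. Regions were called promoters from 1000 bp upstream to 100 bp downstream of 30419 RefSeq start sites, and assigned to the gene of the nearest start site within 150 kb. Motifs were counted in 201 bp windows of distal regions with under 50% soft-masked bases. Listed genes were named where their promoters had peaks in both GFP- and not Tomato- or the reverse, or where their GFP- and Tomato- region counts differed most (3 genes per list), and heart field and other genes of GFP- regions were named after their values were seen. Regions were named from the 10 of highest fold in each set with no deposited peak in the other sort and under 50% soft-masked bases, and shared regions from the 10 furthest in each direction by pileup, with Hoxb1 and Mef2c beside them. The counting steps were tested on simulated data. No test between groups was made, since Tomato- had 1 library, and nothing says whether the GFP- replicates came from separate pools. Scripts ran in Python 3.11.15 with scipy 1.17.1, and numpy 2.4.6 and pandas 2.3.3 held the tables. Some items that these rules would name are not reported here.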

Additional observations from a re-analysis of the deposited data

How the results depend on the processing

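With a -log10 q of at least 4, there were 2010 GFP- and 8865 Tomato- regions, promoter shares of 12.2, 11 and 46.0% (GFP-, Tomato-, shared), and 46.2% of Tomato- and 99.1% of shared regions in a sort-positive library. With all deposited peaks the counts were 16187, 109765 and 49060, the promoter shares 3.64, 2.63 and 28.8%, and the sort-positive shares 37.9% (Tomato-) and 97.7% (shared). With the 50000 peaks of smallest p there were 14058 Tomato- regions, promoter shares of 8.99, 6.45 and 42.5%, and sort-positive shares of 74.1% (GFP-) and 40.7% (Tomato-). With no deposited peak in the absent libraries, 2266 and 21458 regions remained, at promoter shares of 3.44 and 2.79%, sort-positive shares of 60.4 and 20.4%, and SOX and HOX-PBX shares of 19.3 and 5.76% in GFP- regions. An overlap of 50% gave Tomato- shares of 4.52% (promoters) and 29.1% (sort-positive), and promoters taken as 500 bp each way gave 7.16% (GFP-) and 4.85% (Tomato-). Leaving out a GFP- library gave 25607 to 30831 GFP- regions, Tomato- regions of 39214 to 39390 and shared regions of 36734 to 36768, with promoter shares of 3.95 to 4.16%, 5.07 to 5.53% and 34.5 to 34.9%, since the replicate requirement then fell away. The order of the GFP- and Tomato- promoter shares was thus reversed without either GFP- library. Among regions under 50% soft-masked, an alternative chosen after seeing the data, promoter shares were 7.75, 4.93 and 62.2% and sort-positive shares 65.6, 29.1 and 98.7%. SOX shares in GFP-, Tomato- and shared regions were 24.9, 13 and 15.7% in 200 bp windows, with HOX-PBX shares of 8.68, 3.55 and 4.20%. At -log10 q of at least 4, GFP- and shared regions had SOX shares of 26.1 and 8.76% and HOX-PBX shares of 7.31 and 1.73%, and with repeats kept 14.4 and 7.78%, and 3.96 and 1.74%. By fold enrichment in place of pileup, 13 shared regions were higher and 41 lower in Tomato-. The cause of these shifts was not tested. Of 494 named regions, 118 (23.9%) kept their class at -log10 q of at least 4 and 210 (42.5%) in equal lists, so single regions near the threshold are uncertain. No paired analysis was possible because the groups share no replicate number and Tomato- has 1 library.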
